A study of Sus scrofa with 48 samples.

Results

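The genes described are the translation initiation factors (symbols starting with EIF) and the translation elongation factors (symbols starting with EEF) of pig liver and fat. Of 6765 genes that the probe annotation named with 1 symbol, 42 met this rule. Each was represented by the brightest of its tested probe sets (a probe set is the group of short DNA probes on an array that reads 1 transcript). The 42 genes had 64 tested probe sets, 16 of them with more than 1. Their symbols stand as in the annotation, and 41 matched the RefSeq gene table by gene ID with no change of symbol; EIF2S2 was not matched. The elongation factor EEF2 and its kinase EEF2K, EEF1A2, EIF4EBP1 and the eIF2 kinases EIF2AK3 and EIF2AK4 were not analysed here.

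RNA of the liver and the fat of 24 Yorkshire gilts was measured on 48 Affymetrix arrays, 1 per tissue and gilt. The gilts, 6 months old, belonged to a line bred for low residual feed intake. Each carried 2 copies of 1 allele of MC4R, a receptor of the appetite circuits of the brain: D298, which is the wildtype, or N298. Over 3 days they either ate ad libitum ("fed") or were fasted, which gave 8 groups of 6 arrays: liver D298 fed, liver D298 fasted, liver N298 fed, liver N298 fasted, and the same 4 in fat. All groups share the breed, the line, the sex and the age, so the values describe such animals only. The labels do not say which fat depot was sampled.

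Translation starts when a small ribosomal subunit, loaded with initiator tRNA by eIF2, is brought to the capped end of an mRNA. The factor eIF3 bridges the small subunit and eIF4G, the scaffold of the cap complex, while eIF4E binds the cap and the helicase eIF4A unwinds the leader. eIF1, eIF1A and eIF5B then act in start codon choice and in joining of the large subunit. During elongation eEF1A delivers aminoacyl-tRNA to the ribosome, and the eEF1B complex (EEF1B2, EEF1D, EEF1G) reloads eEF1A with GTP. In mammals nutrient shortage slows translation mainly through phosphorylation, by eIF2 kinases and by loss of mTORC1 activity, which leaves 4E-binding proteins free to hold eIF4E; arrays measure transcripts and read none of these steps.

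All values below are log2 of the deposited signal, so 1 unit is a doubling. Groups are given as the lowest to the highest array with the median, and differences as log2 fasted minus fed with the SE of the fitted model. A gene was called at an adjusted p under 0.05, adjusted over all 23999 probe sets tested. Of the 42 genes, 41 lay above the median probe set in mean signal and EIF1AY lay far below it. The labelled tissues carried their markers: the mean log2 of 15 hepatocyte markers was 14.58 to 15.08 on liver arrays, and 11 adipocyte markers averaged 11.21 to 11.85 on fat arrays against 5.31 to 6.65 on liver arrays. On 4 fat arrays, from N298 fed gilts 3 and 6, D298 fed gilt 4 and D298 fasted gilt 5, the hepatocyte mean was 9.21 to 9.51, against 5.13 to 6.19 on the other fat arrays. The mean of 11 skeletal muscle markers varied from 4.11 to 12.58 on fed and from 4.68 to 13.27 on fasted fat arrays and was over 9 on 7 fed and 6 fasted ones. Liver D298 fasted gilt 2 gave the array with the largest spread around the fit (residual SD 0.461). By median correlation with its group liver N298 fed gilt 5 was lowest (0.915, against 0.916 for that array). D298 fed gilt 4 had the highest actin 3′ to 5′ difference in both tissues (3.11 in liver and 3.30 in fat), a sign of more degraded RNA. The same difference of the EEF1A1 control probe sets was instead highest on a fasted array in each tissue (0.22 in liver and -0.12 in fat).

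In fat 24 of the 42 genes changed on fasting, 11 higher and 13 lower (57.1%, against 34.2% of all genes, 15.3% higher and 18.9% lower, 42.4% of genes above the median probe set and 25.2% of all probe sets). In liver 5 of the 42 changed, 4 higher and 1 lower (11.9%, against 7.2% of all genes, 4.09% higher and 3.1% lower, 9.03% of genes above the median probe set and 4.47% of all probe sets). The changes were small: the largest call in fat was 1.39-fold (EIF4A1) and no call reached 2-fold in either tissue. At the deposited scaling the median of the 42 was -0.011 in fat (all genes 0.010) and 0.044 in liver (all genes 0.0048). With each array centred on its median it was -0.095 in fat (all probe sets -0.0098), where 5 genes were called higher and 15 lower. In liver it was then 0.10 (all probe sets 0.018). Under quantile normalization it was 0.071 in fat (all probe sets 0.026), where 23 genes were called, and 0.044 in liver (all probe sets 0.0098). The sign of the median in fat thus differed among the scalings. No gene of the 42 had fed and fasted arrays that did not overlap, 12 against 12, in fat (background 3.15% of all genes) or in liver (0.843%). Of the 42, 2 were called in both tissues, 27 in at least 1 and 15 in neither. The matching shares over all genes were not computed, so these counts do not show whether the overlap is unusual. All 24 calls in fat and all 5 in liver had the same sign in both genotypes.

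The refits below changed the calls over all probe sets too, from 25.2% in the main fit in fat. In fat the count of 24 was 12 (8 higher and 4 lower) without the 4 arrays high in hepatocyte markers, all of them among the 24. Of all probe sets 18.8% were called in that refit. It was 7 (6 higher and 1 lower) without the 13 arrays high in muscle markers (13.3% of all probe sets). Here and below, the fit without those 13 also had no replicate block. Dropping the block alone gave 21 (24.2% of all probe sets). With the muscle marker mean as a covariate the count was 22, of which 21 were shared (25.2% of all probe sets). Without D298 fed gilt 4 it was 19 (23.2% of all probe sets). In liver the count of 5 was also 5 without D298 fasted gilt 2 and without D298 fed gilt 4. Of all probe sets 4.32% and 3.99% were called there, against 4.47%. Endothelial markers rose with fasting in fat (6 of 10 called higher, none lower, summed signal 11552 to 17693 fed and 15635 to 26572 fasted), fibroblast markers gave 4 of 8 lower and 1 higher (44437 to 69153 fed and 39397 to 58401 fasted), and 0 of 11 muscle markers and 1 of 15 hepatocyte markers were called. Of 11 adipocyte markers LPL (-1.03) and CEBPA (-0.44) were called lower in fasted fat, CFD (0.44) was called higher and the rest were not called. These marker calls are to be read against the 34.2% of all genes called in fat. No marker of any list was at 0 on any array, and their part in the results below was not tested. In such bulk samples fewer cells of a type and less RNA per cell cannot be told apart.

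**Figure D1:**
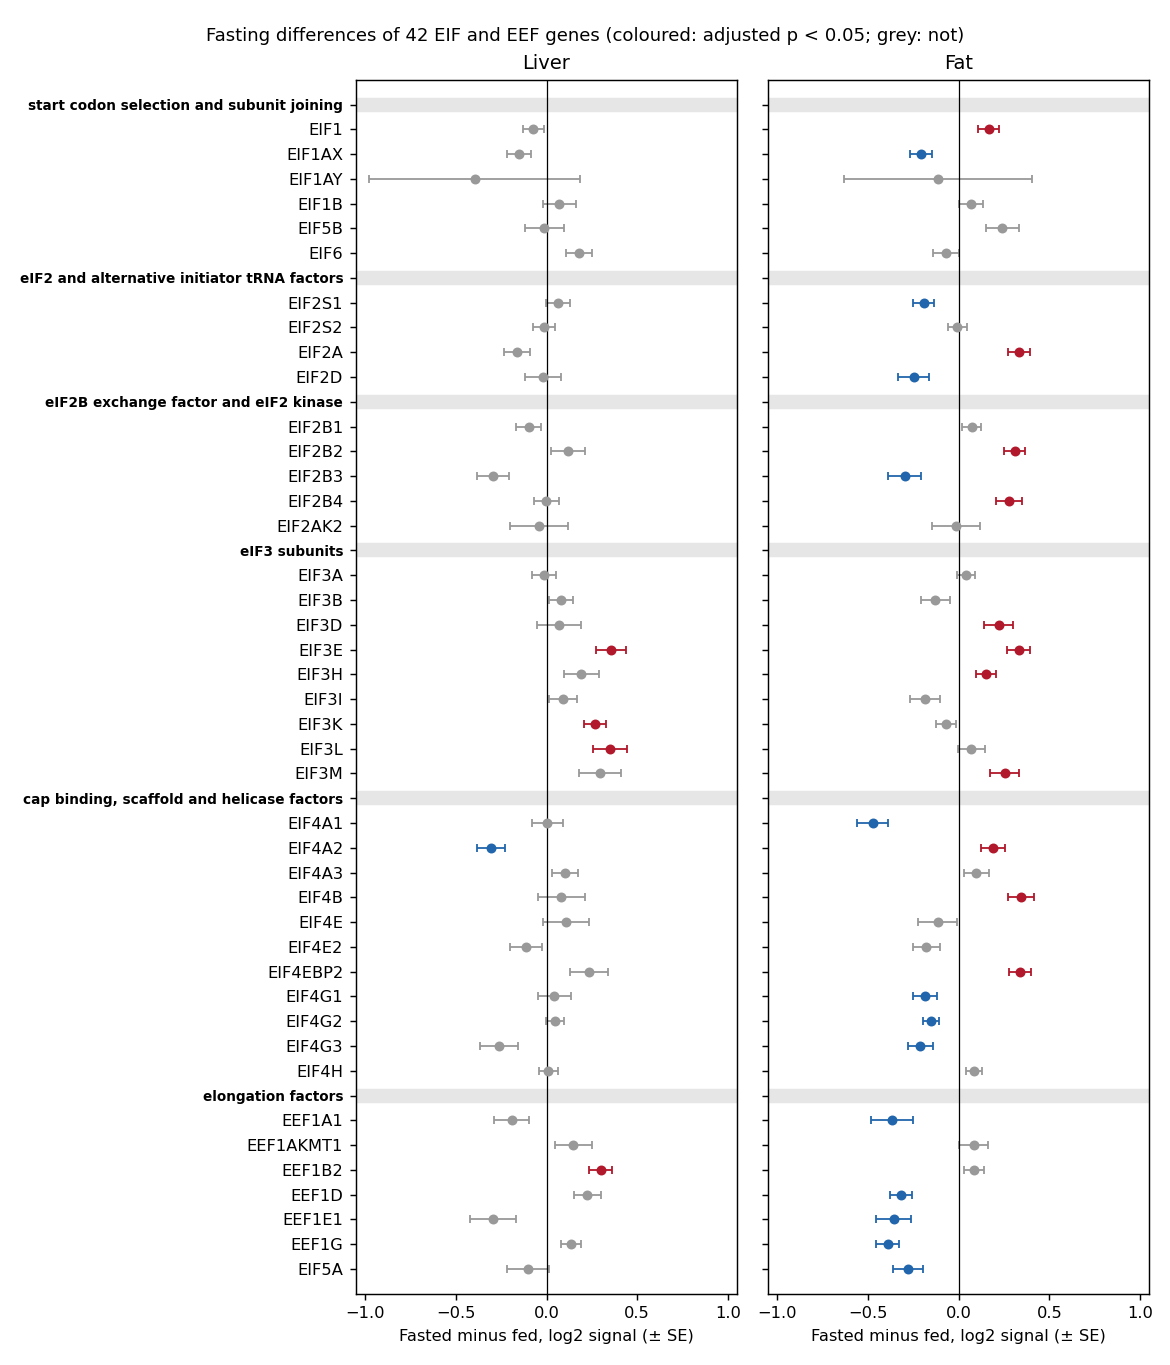
Fasted minus fed difference in log2 signal (x axis, points with SE bars) of each of the 42 genes, by role, in liver and fat, from 12 fasted and 12 fed arrays per tissue. Coloured points passed the adjusted p threshold: 4 higher and 1 lower in liver, and 11 higher and 13 lower in fat.

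Of the 7 elongation genes 5 fell in fat and none rose, except that EEF1B2 rose by 0.13 (adjusted p = 0.0299) under quantile normalization, which left 3 falls. At the deposited scaling EEF1B2 (0.084) and the lysine methyltransferase of eEF1A, EEF1AKMT1 (0.082), did not pass. The count of falls was 2 of 7 (EEF1D and EEF1G) without the 4 arrays high in hepatocyte markers. Without the 13 high in muscle markers it was 1 of 7, EEF1A1, whose probe sets differ as given below. EEF1G (adjusted p = 0.0697 by limma) and EEF1D did not pass without those 13, and EEF1D also did not pass under quantile normalization. EEF1G, the gamma subunit of the eEF1B exchange complex, read 13.54 to 13.88 (median 13.70) on fed and 13.15 to 13.74 (median 13.32) on fasted fat arrays. On 11 of 12 fasted arrays it lay below every fed array. It fell by 0.39 ± 0.063 (SE), to 0.763 of the fed level (adjusted p = 8.78e-05), by 0.38 in D298 and by 0.39 in N298 gilts. EEF1D, the delta subunit of the same complex, went from 12.71 to 13.21 (median 12.89) in fed fat to 12.42 to 12.89 (median 12.62) in fasted fat. It lay below all fed arrays on 10 of 12 fasted arrays and fell by 0.32 ± 0.059 (adjusted p = 0.000364). Neither gene passed in liver, where the differences were 0.14 ± 0.057 for EEF1G (adjusted p = 0.217) and 0.23 ± 0.075 for EEF1D (adjusted p = 0.099). EEF1B2, the beta subunit of the complex, rose in liver instead, from 14.07 to 14.43 (median 14.22) on fed to 14.12 to 14.95 (median 14.54) on fasted arrays. This was 0.30 ± 0.063 (adjusted p = 0.00618), and 9 of 12 fasted livers lay above all fed ones.

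EEF1E1, which belongs to the multi-tRNA synthetase complex and not to the ribosome cycle, read 8.77 to 9.52 (median 9.23) in fed and 8.37 to 9.12 (median 8.87) in fasted fat. It fell by 0.36 ± 0.097 (adjusted p = 0.00876), all 12 fasted arrays lay below the fed median, and its second probe set gave -0.39 (adjusted p = 0.00369). In liver it gave -0.29 ± 0.13 and did not pass (adjusted p = 0.231). EIF5A, which despite its name acts on the ribosome in elongation and termination and is the one protein that carries hypusine, read 11.48 to 12.47 (median 11.96) in fed and 11.29 to 12.15 (median 11.69) in fasted fat. The groups overlap widely, and the difference of -0.28 ± 0.081 (adjusted p = 0.0145, a call lost without the fixed replicate block, under quantile normalization and without either set of marker-high arrays) was -0.67 ± 0.12 on its second probe set (adjusted p = 0.00016). Its liver difference was -0.10 ± 0.12 and did not pass.

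EEF1A1, the main aminoacyl-tRNA carrier, gave different answers from different probe sets. Its brightest tested probe set read 9.64 to 10.74 (median 10.33) in fed and 9.58 to 10.26 (median 9.89) in fasted fat and fell by 0.36 ± 0.12 (adjusted p = 0.0236). The 3 control probe sets that the array maker placed along the same transcript are far brighter, near the top of the scale, and were left out of the tests with all other controls, although the middle one is the brightest of all EEF1A1 probe sets. That middle set read 14.79 to 15.18 (median 14.95) in fed and 14.79 to 15.10 (median 14.89) in fasted fat. Fitted with the controls included, the 3 gave fasting differences in fat of 0.0029, -0.023 and 0.021, none of which passed (adjusted p = 0.834 to 0.982). The 2 other tested probe sets gave -0.14 (adjusted p = 0.271) and 0.075 (adjusted p = 0.686). Of the 3 tested probe sets 1 therefore passed, and whether probes as bright as the controls can follow a change of this size was not tested. In liver none of the 6 passed (-0.19 to 0.30).

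**Figure D2:**
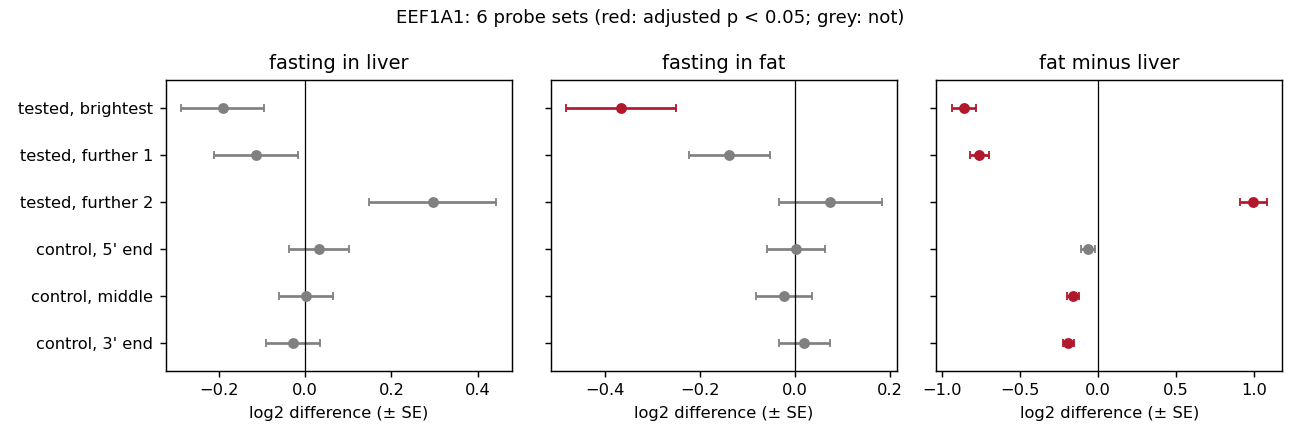
Differences in log2 signal (x axis, with SE bars) of the 6 EEF1A1 probe sets: 3 tested and 3 control probe sets placed at the 5′ end, middle and 3′ end of the transcript. Red marks an adjusted p under 0.05; in fasted fat only the brightest tested probe set (-0.36) is red, and in the comparison of fat with liver the tested sets lie on both sides of 0.

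Among the cap binding, scaffold and helicase genes 3 of 11 rose and 4 fell in fat. Without the 4 arrays high in hepatocyte markers 2 rose and 1 fell, and without the 13 high in muscle markers 1 rose and 0 fell. EIF4A1 and EIF4A2 are close paralogs that encode the eIF4A helicase, and their fitted differences had opposite signs in fat. EIF4A1 read 10.93 to 11.66 (median 11.34) in fed and 10.59 to 11.17 (median 10.78) in fasted fat. All 12 fasted arrays lay below the fed median and 9 below every fed array, and it fell by 0.47 ± 0.087, to 0.720 of the fed level (adjusted p = 0.000324). EIF4A2 read 13.45 to 13.96 (median 13.73) in fed and 13.64 to 14.12 (median 13.96) in fasted fat and rose by 0.19 ± 0.068 (adjusted p = 0.0469). This call was lost in 10 of 20 alternatives, among them centring, the muscle covariate and each removal of marker-high arrays, with values down to 0.074. In liver EIF4A2 went the other way: from 13.38 to 13.88 (median 13.59) in fed to 12.62 to 13.60 (median 13.37) in fasted gilts, with 8 of 12 fasted livers below all fed ones. It fell by 0.31 ± 0.077 (adjusted p = 0.0223), while EIF4A1 gave 0.0051 ± 0.084 in liver. EIF4A3, the paralog that sits in the exon junction complex, passed in neither tissue (0.10 in liver and 0.097 in fat).

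EIF4B, which stimulates eIF4A, read 12.24 to 12.95 (median 12.70) in fed and 12.70 to 13.27 (median 12.999) in fasted fat. It rose by 0.34 ± 0.070 (adjusted p = 0.000975), with 7 of 12 fasted arrays above all fed ones, and its second probe set rose by 0.30 ± 0.083 (adjusted p = 0.00972). EIF4H, a smaller partner of eIF4A, did not pass on its brightest probe set (0.086 in fat), while a dimmer one rose by 0.42 (adjusted p = 0.0168). EIF4EBP2, a 4E-binding protein that represses translation by holding eIF4E, read 11.90 to 12.32 (median 12.15) in fed and 12.19 to 12.70 (median 12.46) in fasted fat. All 12 fasted arrays lay above the fed median, and it rose by 0.34 ± 0.060 or 1.26-fold (adjusted p = 0.000256). Of its 4 other probe sets, 1 rose in fat by 0.44 ± 0.061 (adjusted p = 1.87e-05) and 3 did not pass (0.037 to 0.092). In liver the brightest set gave 0.23 ± 0.11 and did not pass, but another fell by 0.29 ± 0.069 (adjusted p = 0.0171), so the liver response of EIF4EBP2 differs in sign between probe sets.

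The scaffold genes gave small differences in fat, and the calls of all 3 were lost without the arrays high in hepatocyte markers and without those high in muscle markers. EIF4G1 read 10.44 to 11.04 (median 10.75) in fed and 10.41 to 10.83 (median 10.52) in fasted fat and fell by 0.19 ± 0.066 (adjusted p = 0.0452); its second probe set gave -0.16 and did not pass. EIF4G2, a relative that lacks the eIF4E site, fell by 0.15 ± 0.044 with 10 of 12 fasted arrays below all fed ones (adjusted p = 0.0153), and EIF4G3 fell by 0.21 ± 0.067 (adjusted p = 0.0244). EIF4G1 and EIF4G3 also did not pass without the replicate block alone, nor did EIF4G3 with it as a random block. The cap binding protein EIF4E itself did not pass in either tissue. It read 7.60 to 8.44 (median 8.20) in fed and 7.57 to 8.60 (median 8.02) in fasted fat (-0.12 ± 0.11, adjusted p = 0.497), and its liver difference was 0.11 ± 0.13. EIF4E2, a cap binding relative, gave -0.18 in fat and -0.11 in liver and passed in neither.

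Of the 9 eIF3 subunits 3 rose and none fell in liver (8 of 9 differences above 0), and 4 rose and none fell in fat (6 of 9 above 0), except that with each array centred on its median 1 rose in fat (EIF3E) and 1 fell (EIF3I, by 0.27). Without the gilts numbered 2, or without those numbered 4, EIF3E was the 1 eIF3 call left in fat, and 2 of 9 rose without the 13 arrays high in muscle markers. None of the 9 was called in liver without the gilts numbered 1, or without those numbered 3. Only EIF3E rose in both, and this is the one gene of the 42 called in the same direction in both tissues. EIF3E read 11.70 to 12.16 (median 11.94) in fed and 11.53 to 12.83 (median 12.27) in fasted liver, and rose by 0.35 ± 0.082 (adjusted p = 0.0124), with 10 of 12 fasted livers above all fed ones and 1 below all of them. In fat it read 12.61 to 12.99 (median 12.78) fed and 12.90 to 13.35 (median 13.13) fasted, and rose by 0.33 ± 0.063 or 1.26-fold (adjusted p = 0.000442), with 9 of 12 fasted arrays above all fed ones.

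Liver also held rises in EIF3K and EIF3L, which were not called in fat. EIF3K read 12.29 to 12.98 (median 12.73) in fed and 12.55 to 13.23 (median 13.04) in fasted liver (0.27 ± 0.061, adjusted p = 0.0124), against -0.069 ± 0.053 in fat. EIF3L, the partner of EIF3K in the complex, read 11.17 to 11.72 (median 11.42) and 11.29 to 12.16 (median 11.87) (0.35 ± 0.095, adjusted p = 0.037), against 0.070 ± 0.074 in fat. Fat in turn held rises in EIF3M, EIF3D and EIF3H. EIF3M read 11.96 to 12.36 (median 12.26) in fed and 12.05 to 12.83 (median 12.46) in fasted fat and rose by 0.25 ± 0.080 (adjusted p = 0.0228), with 9 of 12 fasted arrays above all fed ones; its second probe set rose by 0.59 ± 0.062 (adjusted p = 6.7e-07). EIF3D, a subunit that can itself bind the cap, read 11.03 to 11.35 (median 11.16) and 10.78 to 11.87 (median 11.39), and rose by 0.22 ± 0.078 (adjusted p = 0.0424) although 2 fasted arrays lay below all fed ones; it did not pass without the fixed replicate block. Its second, dim probe set gave 0.13 and did not pass. EIF3H rose by 0.15 ± 0.055 (adjusted p = 0.0485). The fat call of EIF3H was lost in 11 of 20 alternatives, with values down to 0.067, and that of EIF3D in 10. EIF3A, EIF3B and EIF3I passed in neither tissue (-0.19 to 0.090).

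**Figure D3:**
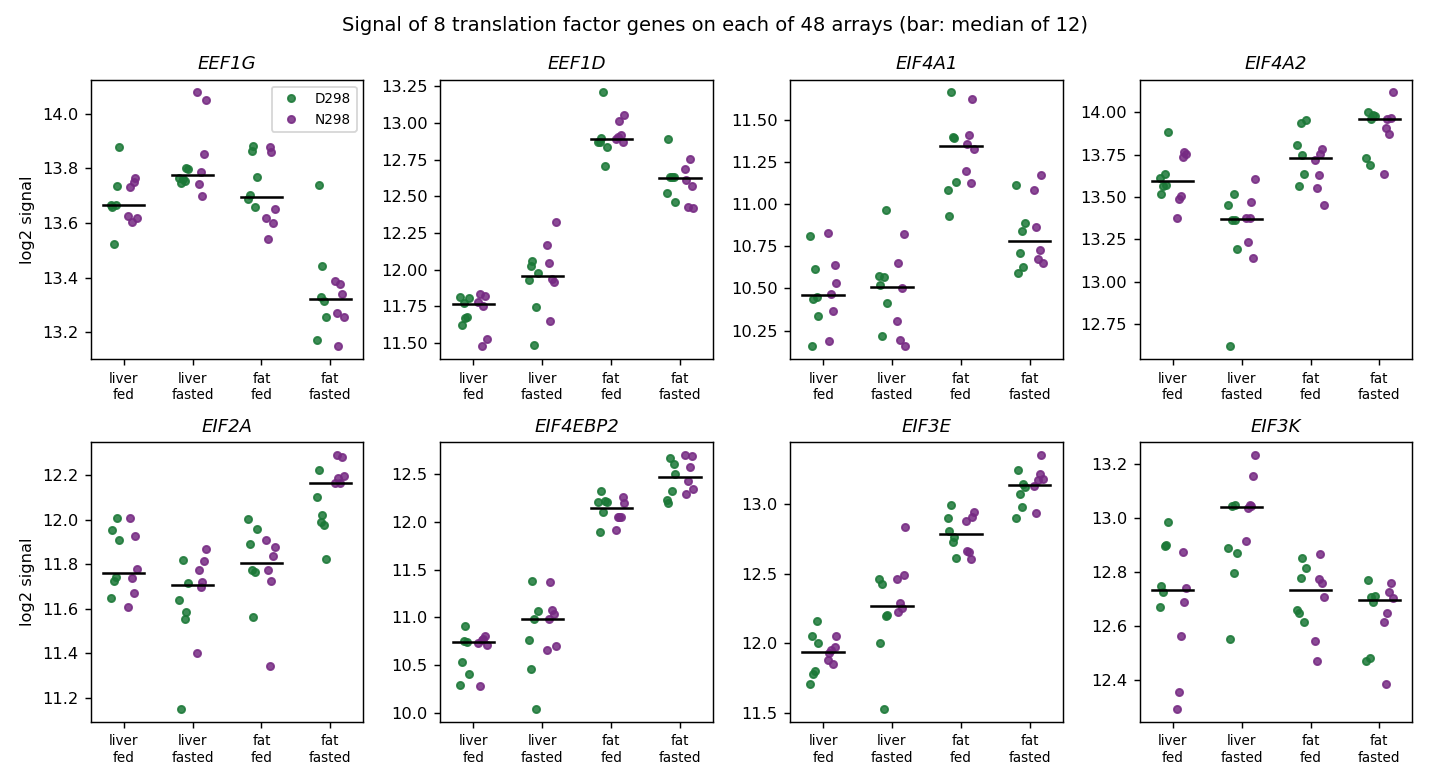
Log2 signal (y axis) of 8 of the genes on every array, by tissue and feeding state, with 12 points per column (green D298, purple N298) and a bar at their median. EEF1G, EEF1D and EIF4A1 drop in fasted fat but not in fasted liver, EIF4A2 moves in opposite directions in the tissues, and EIF3E is higher in both; the fed and fasted points overlap in each panel.

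Of the 4 tRNA loading genes 1 rose and 2 fell in fat. Neither fall passed without the arrays high in hepatocyte markers, without those high in muscle markers, or without the gilts numbered 3, 5 or 6. EIF2S1, the alpha subunit of eIF2 that the stress kinases phosphorylate, read 11.13 to 11.40 (median 11.20) in fed and 10.81 to 11.36 (median 11.05) in fasted fat. On 9 of 12 fasted arrays it lay below all fed ones, and it fell by 0.19 ± 0.058 (adjusted p = 0.018). The beta subunit EIF2S2 gave -0.0062 ± 0.054 in fat and -0.016 ± 0.061 in liver. EIF2A, a separate protein that can bring initiator tRNA to the ribosome without eIF2, read 11.34 to 12.00 (median 11.81) in fed and 11.82 to 12.29 (median 12.16) in fasted fat. All 12 fasted arrays lay above the fed median and 9 above every fed array, a rise of 0.33 ± 0.060 or 1.26-fold (adjusted p = 0.000295), while liver gave -0.16 ± 0.072 (adjusted p = 0.24). A second, dimmer EIF2A probe set gave 0.14 ± 0.27 in fat and did not pass. EIF2D, which acts in reinitiation and recycling, read 8.36 to 8.99 (median 8.85) in fed and 8.28 to 8.86 (median 8.51) in fasted fat and fell by 0.25 ± 0.084 (adjusted p = 0.0338).

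Of the 4 measured subunits of eIF2B, which reloads eIF2 with GTP, 2 rose and 1 fell in fat, and the fall did not pass without either set of marker-high arrays. EIF2B2, a regulatory subunit, read 9.84 to 10.35 (median 10.05) in fed and 10.22 to 10.56 (median 10.36) in fasted fat, with all 12 fasted arrays above the fed median (0.31 ± 0.058, adjusted p = 0.000381). EIF2B4, also regulatory, read 9.34 to 9.90 (median 9.66) and 9.51 to 10.16 (median 9.97) (0.28 ± 0.070, adjusted p = 0.00519). EIF2B3, which belongs to the catalytic arm, read 8.26 to 9.05 (median 8.62) and 8.03 to 8.58 (median 8.33), with all 12 fasted arrays below the fed median (-0.30 ± 0.090, adjusted p = 0.019). Its liver difference was also -0.30 ± 0.089, with all 12 fasted livers below the fed median, and did not pass (adjusted p = 0.0612). EIF2B1 passed in neither tissue. EIF2AK2, the interferon-induced kinase of eIF2, read 9.81 to 12.15 (median 10.47) in fed and 9.87 to 11.89 (median 10.47) in fasted liver, and 9.91 to 11.50 (median 10.49) and 9.80 to 11.35 (median 10.47) in fat. The fed and fasted ranges nearly coincide in both tissues, and it had no fasting call (-0.041 ± 0.16 in liver and -0.015 ± 0.13 in fat).

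The start codon and subunit joining genes held 1 rise and 1 fall in fat and no call in liver. EIF1, which guards start codon choice, rose in fat by 0.16 ± 0.059 (adjusted p = 0.0464), with 11 of 12 fasted arrays above the fed median. This call was lost in 11 of 20 alternatives, among them centring, the muscle covariate and each removal of marker-high arrays, with values down to 0.080. In liver EIF1 gave -0.072 ± 0.058 and did not pass, although its second probe set fell there by 0.36 ± 0.066 (adjusted p = 0.00164). EIF1AX, a form of eIF1A, fell in fat by 0.21 ± 0.060 (adjusted p = 0.0131), while its second probe set gave -0.13 and did not pass (adjusted p = 0.165). EIF6, which keeps free large subunits from joining, passed in neither tissue: it read 10.51 to 11.01 (median 10.88) in fed and 10.55 to 11.06 (median 10.75) in fasted fat (-0.068 ± 0.071) and gave 0.18 ± 0.071 in liver (adjusted p = 0.184). EIF5B gave 0.24 ± 0.093 in fat and narrowly missed (adjusted p = 0.0635), and EIF1B passed in neither. EIF1AY was too dim to follow: it ranged from -0.39 to 4.36 on fat arrays and from -0.024 to 5.37 on liver arrays.

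The counts in fat and liver do not by themselves show that the tissues responded differently, so the difference of the responses was tested in 1 model over all 48 arrays. It passed for 10 of the 42 genes (23.8%, against 24% of all genes, 8.91% higher and 15.1% lower, 30.6% of genes above the median probe set and 16.1% of all probe sets), 4 with a higher response in fat and 6 with a lower one. The share of these genes whose response differed is thus at the background. EEF1G had the smallest p: fasting moved it by 0.14 in liver and by -0.39 in fat, a difference of -0.52 ± 0.076 (adjusted p = 9.33e-07). EEF1D, from the same complex, moved by 0.23 and -0.32, a difference of -0.54 ± 0.092 (adjusted p = 1.67e-05). EIF2A moved by -0.16 and 0.33 (0.50 ± 0.093, adjusted p = 9.47e-05), and EIF4A2 by -0.31 and 0.19 (0.50 ± 0.10, adjusted p = 0.000395). Of the 10, EIF4A2 is the one that was called in each tissue alone, in opposite directions, though the call was lost in 10 of 20 alternatives in fat and in 6 of 18 in liver.

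EIF3K moved by 0.27 in liver and -0.069 in fat (-0.33 ± 0.086, adjusted p = 0.00424). EIF4A1 fell in fat while its liver estimate was near 0 (-0.48 ± 0.12, adjusted p = 0.00469). The other 4 were EIF1 (0.24), EIF2S1 (-0.26), EIF4G2 (-0.20) and EIF2B4 (0.28). In contrast EIF3E and EIF2B3 had near equal estimates in the tissues: the difference was -0.022 ± 0.10 for EIF3E (adjusted p = 0.925) and 0.000089 ± 0.12 for EIF2B3. For EEF1D, EEF1G, EIF4A1 and EIF4A2 the difference passed under all 19 alternatives tried. The call was lost in 11 of the 19 for EIF2B4, in 5 for EIF4G2 and in 4 for EIF1. It was lost in 2 each for EIF2S1 and EIF3K and in 1 for EIF2A.

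**Figure D4:**
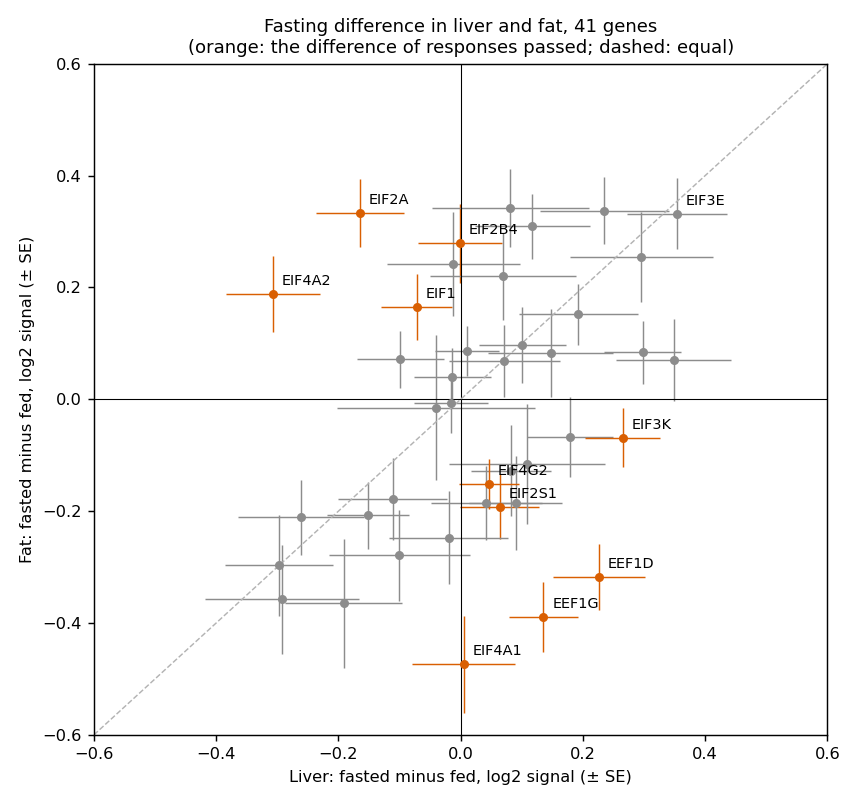
Fasted minus fed log2 difference in liver (x axis) against that in fat (y axis) for 41 genes (EIF1AY, too dim, is left out), with 12 fasted and 12 fed arrays per tissue. Orange points are genes whose response differed between the tissues at an adjusted p under 0.05: EEF1G and EEF1D lie at the lower right, and EIF2A and EIF4A2 at the upper left.

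None of the 42 passed for N298 against D298 or for the interaction of genotype with fasting in either tissue by limma (0% of all 23999 probe sets passed too). At an unadjusted p under 0.05 there were 1 gene for genotype in liver and 2 in fat, and 3 for the interaction in each tissue. Such a p arises for a fraction of about 0.05 of unchanged genes, and these counts are near that. The smallest p for genotype belonged in liver to EIF2AK2 (-0.40 ± 0.16, N298 lower, adjusted p = 0.951) and in fat to EIF3A (0.13 ± 0.052, adjusted p = 0.859). For the interaction it was EIF3K in liver: fasting moved it by 0.045 in D298 and by 0.49 in N298 gilts, a difference of 0.44 ± 0.12 (adjusted p = 0.85). In fat it was EIF4G3, at -0.050 in D298 and -0.37 in N298 gilts (-0.32 ± 0.13, adjusted p = 0.84). EIF2A came next in fat, with 0.20 in D298 and 0.47 in N298 gilts (adjusted p = 0.852 for the difference).

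Between the tissues 34 of the 42 genes differed, 27 higher and 7 lower in fat (81%, against 80.3% of all genes, 46.9% higher and 33.4% lower, 85.9% of genes above the median probe set and 72% of all probe sets). The share is that of genes in general, and the balance of directions differs among the scalings. The median of all probe sets was 0.26 higher in fat at the deposited scaling, and with each array centred on its median the count became 15 higher and 18 lower. Under quantile normalization the median of all probe sets was 0.034, while that of the 42 was 0.35 (0.34 at the deposited scaling). With that scaling 37 of the 42 were called and 34 of the 42 values were above 0. The values below are at the deposited scaling and are to be read beside these medians. For 10 of the 34 genes the sign differed among the deposited, centred and quantile scalings, among them EEF1G, EIF2A, EIF2S1, EIF3K and EIF4A2.

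By its brightest probe set EIF4EBP2 had the largest difference at the deposited scaling. It read 10.04 to 11.38 (median 10.75) on liver and 11.90 to 12.70 (median 12.24) on fat arrays, with every fat array above every liver array. This is 1.53 ± 0.067 or 2.89-fold (adjusted p = 1.8e-25), but its probe sets did not share a direction and ranged from -0.56 to 2.03. With the mean of its probe sets the difference was 0.63, and with centred arrays 1.17, smaller in size than that of EEF1A1 (-1.22). EIF2D was 1.01 ± 0.059 higher in fat (7.27 to 8.11 in liver and 8.28 to 8.99 in fat), again with no overlap. EEF1D was 0.94 ± 0.046 higher (11.48 to 12.33 and 12.42 to 13.21), and EIF4G3 (0.94 ± 0.085) and EIF5B (0.93 ± 0.068) followed. In the other direction EIF4G1 read 11.05 to 11.94 in liver and 10.41 to 11.04 in fat, lower in all 24 gilts (-0.81 ± 0.056, 0.572 of the liver level, adjusted p = 1.05e-17), while its relatives EIF4G2 (0.15, a sign that differs among scalings) and EIF4G3 were higher in fat. Of the 42 genes 7 had fat and liver arrays that did not overlap (background 23.1% of all genes): EEF1D, EIF2B2, EIF2D, EIF2S2, EIF4EBP2 and EIF5B above, and EIF4G1 below. The other genes lower in fat by the rule were EIF1AY (-1.34, but -0.30 with 32 added before log2, on a dim probe set whose target was not checked), EEF1A1 (-0.86), EIF1B (-0.27) and EEF1G (-0.22, but 0.34 under quantile normalization).

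For EEF1A1 the 3 control probe sets were lower in fat by far less (-0.19, -0.062 and -0.16) than the brightest tested set, and another tested set was higher by 0.99 ± 0.087 (adjusted p = 2.12e-14). Feeding state changed some of these contrasts. EEF1D was 1.21 higher in fat in fed gilts and 0.67 in fasted ones. EEF1G differed by 0.041 in fed gilts (adjusted p = 0.52) and by -0.48 in fasted gilts. EIF4A2 and EIF2A differed by 0.093 and -0.026 in fed gilts, neither of which passed, and were 0.59 and 0.47 higher in fat in fasted gilts. EIF3E was higher by about the same amount in both states (0.86 fed and 0.84 fasted).

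Genes that work beside these factors were followed as lists, to be read against the 34.2% of all genes called in fat and 7.2% in liver. Among 17 aminoacyl-tRNA synthetases and their partners, which charge the tRNAs that eEF1A carries, 10 fell and 1 rose in fasted fat (64.7%), and none passed in liver. VARS fell by 0.60 ± 0.097 (adjusted p = 9.38e-05), MARS by 0.48 and SARS by 0.26, while AIMP1, a scaffold of the synthetase complex that also holds EEF1E1, rose by 0.40. Of 7 mitochondrial translation factors 3 fell in fat (42.9%) and none in liver: the mitochondrial elongation factors TUFM (-0.90 ± 0.097, adjusted p = 8.73e-07), TSFM (-0.46) and GFM1 (-0.33). Of 6 partners of elongation, termination and recycling DPH5 (0.51) and EFL1 (0.25) rose and DPH3 (-0.29) fell in fat (50% called), and none passed in liver.

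Of 10 poly(A) binding and mRNA entry partners 4 rose and 1 fell in fat (50%). FMR1 rose by 0.37, the poly(A) binding proteins PABPC4 by 0.28 and PABPC1 by 0.20, and YBX1 fell by 0.25 in fat and by 0.28 in liver. The mTORC1 list, the kinase complex upstream of 4E-binding proteins, held 6 rises and 2 falls among 25 in fat (32%, near the share of all genes). The AMPK subunits PRKAA1 (0.63) and PRKAB1 (0.35) and the Rag GTPase RRAGC (0.43) rose, and the lysosomal scaffold members LAMTOR2 (-0.55) and LAMTOR5 (-0.35) fell; in liver RRAGA rose (0.24). The list of ATF4 and the amino acid response, which lies downstream of eIF2 phosphorylation, gave 2 rises and 6 falls among 19 in fat (42.1%). ATF4 (0.30) and IMPACT (0.32) rose there, while the serine and cysteine synthesis genes PSPH (-2.55), PHGDH (-1.18) and CTH (-1.09) fell. In liver PSPH (-1.92) and PSAT1 (-0.29) fell and CTH (0.43) and ATF5 (1.06) rose. Of 23 ribosome assembly genes 5 rose and 4 fell in fat (39.1%), with NPM1 (0.44) and NOP2 (0.37) up and NHP2 (-0.91), FBL (-0.50) and NOP10 (-0.35) down.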

How the data were processed

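Liver and fat RNA was labelled in 1 cycle with biotin and hybridised to 1-colour Affymetrix pig arrays, per the labels' protocols. The deposited intensity values are linear MAS5 signals made with affy, per the submitters' processing notes, which give no versions. The authors scaled each array: its mean without the 2% highest and lowest probe sets is 500.1 to 500.2. Array medians were 122.7 to 149.2 in liver and 159.5 to 192.7 in fat. Probe-level data were not used here, and the number of arrays limits the precision.

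Signals were taken to log2 with nothing added. Of 24123 probe sets 124 controls were left out, which removed the brightest EEF1A1 sets; 10069 of the rest name 1 gene, 198 several and 13732 none. Per tissue, limma 3.58.1 (R 4.3.3) fitted 4 groups with the replicate number as a fixed block, following the block design in the series text, and eBayes with trend, with Benjamini-Hochberg adjustment over 23999 probe sets. Tissues were compared over the 48 arrays together, arrays being joined to gilts by genotype, feeding and replicate number and the gilt entered as a random effect by duplicateCorrelation (consensus 0.084). Every p comes from these fits and is two-sided.

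The members and lists were chosen with earlier results of these data known. Values by group are given for members that pass (over 15 of them, the 8 largest rises and 8 largest falls), the 6 smallest p for the response difference, the 5 largest tissue differences each way, the 2 smallest p for genotype and interaction, and a fixed set of central factors. Up to 3 members of each pathway list are named in each direction. Other members are given where they complete a complex, and were chosen after their values were seen. The fits were tested on simulated data and missed most small changes there. With 50 probe sets changed 1.25-fold, 4 were called in liver, 3 in fat and 0 for the response difference. With 50 changed 1.5-fold, 16, 12 and 13 were called. Few of the 23999 simulated probe sets were changed, against 6048 called in fat in the real data. The adjusted p threshold was thus harder to pass there, and the counts do not give the share missed here. Genes that did not pass are still not shown to be unchanged. Alternatives covered blocks, scaling, filters, arrays left out, and the choice of probe set. The replicates are gilts, 1 array per tissue each.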

Additional observations from a re-analysis of the deposited data

Results flagged for a closer look

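In 24 of 336 combinations of gene and group of 6 arrays (7.14%) the highest or lowest array stood apart from the others by Dixon's test, where chance alone gives about 5%, or 1 in 20. The array was above the others in these cases. EEF1B2 read 14.43 on liver D298 fed gilt 6 (nearest 14.27) and EEF1D read 13.21 on fat D298 fed gilt 4 (nearest 12.90). EEF1E1 read 9.52 on liver D298 fasted gilt 4 (nearest 8.79) and EIF1AX read 12.16 on fat N298 fed gilt 2 (nearest 11.83). EIF1B read 11.78 on liver D298 fasted gilt 4 (nearest 11.29) and EIF2AK2 read 12.15 on liver D298 fed gilt 6 (nearest 10.71). EIF2B2 read 10.56 on fat D298 fasted gilt 5 (nearest 10.34) and EIF2S1 read 11.04 on liver D298 fed gilt 6 (nearest 10.84). EIF2S2 read 11.98 on fat N298 fasted gilt 3 (nearest 11.83) and EIF3I read 11.54 on fat N298 fed gilt 3 (nearest 10.97). EIF4A2 read 13.88 on liver D298 fed gilt 6 (nearest 13.63) and EIF4G2 read 13.70 on fat N298 fed gilt 3 (nearest 13.65).

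It was below them in these. EEF1AKMT1 read 10.12 on fat D298 fasted gilt 4 (nearest 10.54) and EEF1E1 read 7.57 on liver N298 fasted gilt 3 (nearest 8.30). EIF1 read 14.00 on fat D298 fasted gilt 3 (nearest 14.17) and EIF1B read 10.93 on liver N298 fasted gilt 1 (nearest 11.24). EIF2A read 11.34 on fat N298 fed gilt 3 (nearest 11.72) and EIF2A read 11.40 on liver N298 fasted gilt 1 (nearest 11.70). EIF2B1 read 10.11 on fat D298 fasted gilt 4 (nearest 10.34) and EIF2B2 read 8.87 on liver D298 fasted gilt 4 (nearest 9.36). EIF3D read 9.78 on liver D298 fasted gilt 4 (nearest 10.47) and EIF3D read 10.26 on liver D298 fed gilt 1 (nearest 10.61). EIF4A2 read 12.62 on liver D298 fasted gilt 2 (nearest 13.19) and EIF4EBP2 read 10.28 on liver N298 fed gilt 2 (nearest 10.71). The liver arrays of D298 fasted gilt 4, D298 fed gilt 6 and N298 fasted gilt 1 and the fat arrays of N298 fed gilt 3 and D298 fasted gilt 4 each occur more than once among these.

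The fasting response differed between the tissues, by the test of the difference itself, for 10 genes. As the response in fat minus that in liver, it was -0.54 for EEF1D, -0.52 for EEF1G, -0.48 for EIF4A1, -0.33 for EIF3K, -0.26 for EIF2S1 and -0.20 for EIF4G2. It was 0.50 for EIF2A, 0.50 for EIF4A2, 0.28 for EIF2B4 and 0.24 for EIF1. The call held in all 19 alternatives for 4 of the 10 (EEF1D, EEF1G, EIF4A1 and EIF4A2) and was lost in 11 for EIF2B4.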

How the results depend on the processing

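Of 1378 refits of the genes followed, 1215 stayed on the same side of the threshold, 158 lost the call and 3 gained one. In the other 2 a called value changed sign, both between tissues: EIF2S1 (-0.099, centred arrays) and EEF1G (0.34, quantile normalization). Only 13 of the 34 calls between tissues were followed in these refits. Over the 3 scalings the sign differed for 10 of all 34. Among the 1215, 14 refits of uncalled values changed sign (EIF2AK2, EIF4G1 and EIF5A). Over the alternatives tried, 0 to 6 genes were called for fasting in liver, 7 to 25 in fat, 6 to 15 for the response difference and 33 to 37 between tissues. In fat EIF2B2, EIF3E and EIF4B passed in all 20 alternatives; in liver no call held in all 18. Calls lower in liver were 2 without the replicate block, 2 with it random, 2 with brighter probe sets, 2 with the mean of a gene's probe sets, and 0 with centred arrays or without the trend. Calls higher in fat were 5 with centred arrays, 7 without the trend and 6 without the muscle-marker arrays; calls lower were 1 without those and 4 without the hepatocyte-marker arrays. With centred arrays the response difference gave 2 higher and 13 lower, and the tissue difference 15 higher and 18 lower. The fit without the muscle-marker arrays also had no replicate block. Apart from fewer arrays where arrays are left out, the cause was not tested.

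Leaving out 1 replicate number or 1 array at a time gave 0 to 4 calls higher and 0 to 1 lower in liver, 6 to 10 and 7 to 13 in fat, 2 to 4 and 3 to 8 for the response difference, and 27 to 28 and 7 to 8 between tissues. In liver 0 genes passed without replicate 3, 1 without replicate 1, 2 without 6 and 3 without 2 or 5; in fat 13 passed without replicate 2 and 15 without 4. Over all probe sets the main counts were 1073 in liver (667 without replicate 3), 6048 in fat (3186 without the muscle-marker arrays) and 17291 between tissues (10409 of 11999 brighter ones). Centring moved the share of higher calls from 50.8% to 68.1% in liver, 60.1% to 43.2% in fat, 54.9% to 28% for the response difference and 65.1% to 45.3% between tissues (53.2% with quantile normalization).

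Without the replicate block 6 genes were called in liver (5 shared with the block) and 21 in fat (20 shared). Same-numbered gilts were not shown to be paired: the correlation of their residuals had a median of 0.061 in liver (10 of 36 pairs over 0.1) and 0.062 in fat (16 of 36), and 2 of 24 liver and 10 of 24 fat arrays correlated best with their own number. Genotype and interaction called no gene of the 42 under any alternative.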
